A study of Mus musculus with 4 samples.

Results

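The genes described here are 38 type I interferon-stimulated antiviral genes of the mouse, taken as the rows of the deposited table whose symbol was on a list of known interferon-induced sensors and effectors. All 38 were among the 24784 genes of the table, and all 38 passed the filter for testing, a mean of at least 1 RPKM over the 4 libraries. RPKM is a read number divided by gene length and library size, so it compares levels between genes per length. Messenger RNA came from tumour-associated macrophages sorted out of digested livers of male mice, 6 to 8 weeks old, that had received Hepa 1-6 cells, a mouse hepatoma line, by a route the labels abbreviate as i.pv. The OXCT1mKO group (2 libraries) is named for Oxct1, which encodes the enzyme that activates acetoacetate in ketone body oxidation, and the control group (2 libraries) carries the genotype label Control. The mouse strain, the way the deletion was made, the driver of any recombinase and the sorting antibodies were not stated in the labels. Nothing in the labels says that the libraries of a group came from separate animals, so the spread that p-values rest on may be technical.

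Type I interferons are secreted when a cell senses foreign or misplaced nucleic acid. They bind a receptor made of IFNAR1 and IFNAR2, whose kinases JAK1 and TYK2 activate transcription factors in the cytoplasm. The factor ISGF3, which contains STAT2 and IRF9, then binds the interferon-stimulated response element (ISRE) in the promoters of antiviral genes. In macrophages the same genes are also held at a basal level by low, constant interferon signalling.

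Of the 38 interferon-stimulated genes, 22 rose in the OXCT1mKO libraries and 0 fell. Calls were made by limma's test with Benjamini-Hochberg adjustment over all 12523 genes tested (adjusted p under 0.05). Of all tested genes, 16.4% were called higher and 16.4% lower. At an unadjusted p under 0.05, 29 of the 38 were higher, against 24.2% of all tested genes. Both OXCT1mKO libraries stood above both control libraries for 33 of the 38, against 37.6% of all tested genes, and both stood below for 0 of the 38, against 37% of all tested genes. The groups overlapped for Oasl1, Bst2, Isg20, Ifi27 and Xaf1. The median log2 fold change, on the log2(RPKM + 1) scale, was 0.66 over the 38 and 0.00 over all tested genes. The summed level of the 38 was 1066 and 947 RPKM in the OXCT1mKO libraries, against 705 and 809 RPKM in the control libraries.

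**Figure D1:**
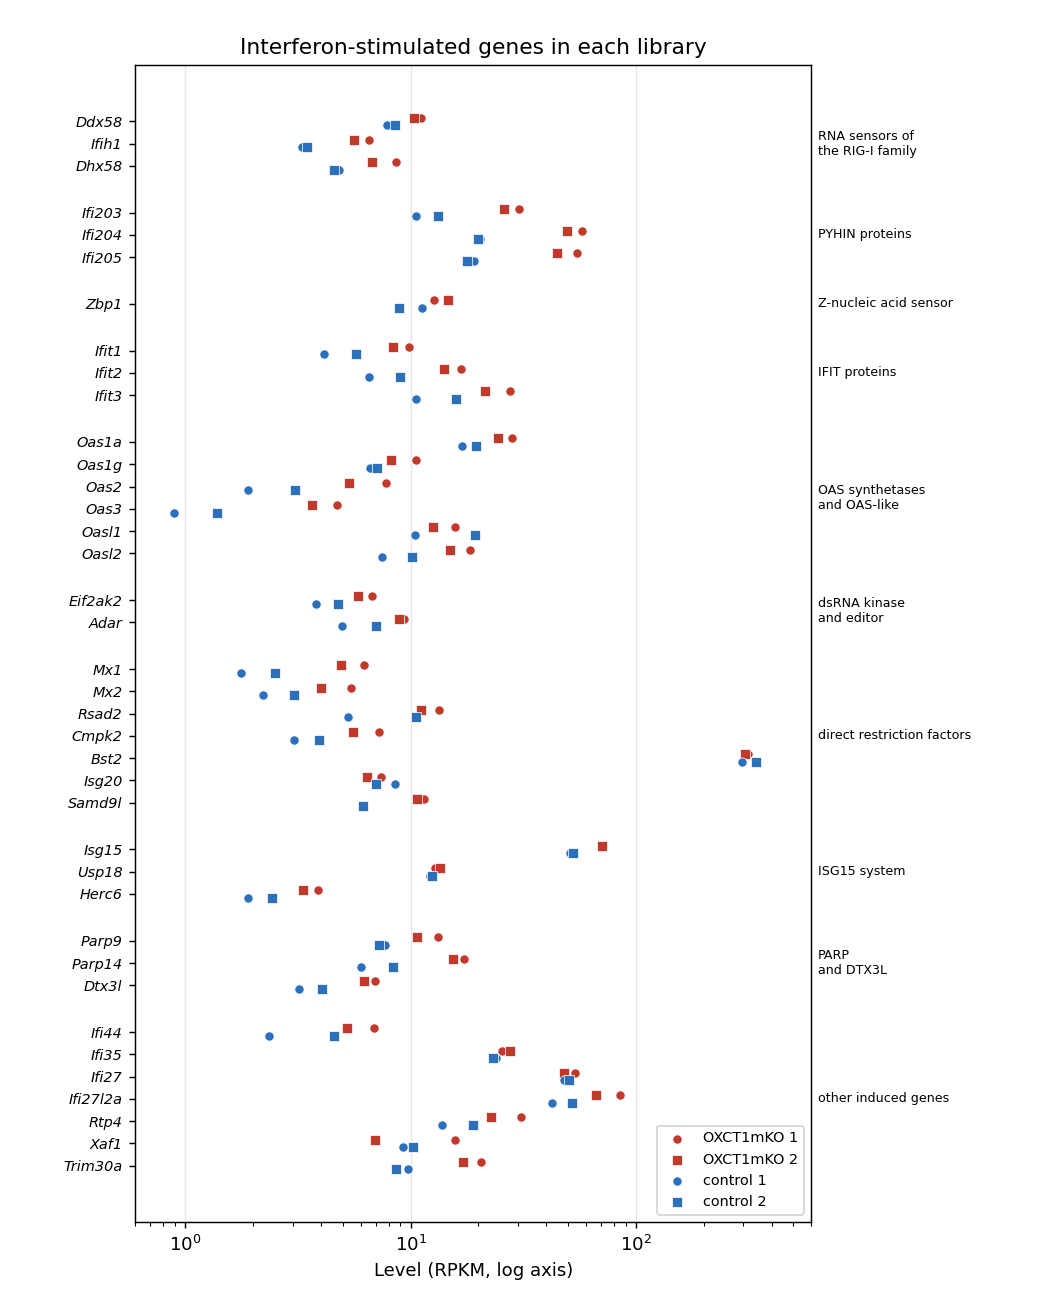
Level of each of the 38 interferon-stimulated genes in each library, in RPKM on a log axis, grouped by role; red, drawn above, marks OXCT1mKO and blue marks control, with circles for replicate 1 and squares for replicate 2. For 33 of the 38 genes both red points lie to the right of both blue points.

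Some genes shared by all leukocytes were higher in the OXCT1mKO libraries too. Ptprc, which encodes the pan-leukocyte antigen CD45, stood at 62.0 and 62.4 RPKM in the OXCT1mKO libraries, against 27.7 and 28.0 RPKM in the control libraries (log2 fold change 1.13 ± 0.08 SE, limma adjusted p = 0.0127). Of 12 pan-leukocyte genes, 6 were called higher and 0 lower, against 16.4% and 16.4% of all tested genes. Their log2 fold changes were uneven, from -0.07 for Rac2 to 1.22 for Itgb2, with a median of 0.65. The groups overlapped for Coro1a and Rac2. The sum of the 12 genes was 1324 and 1459 RPKM in OXCT1mKO, against 1076 and 807 RPKM in control. When every library was scaled to those 12 genes, the median of the 38 interferon-stimulated genes was 0.04 and that of all tested genes was -0.57. Under that scaling Ifi204, Ifi205 and Oas3 were called higher, and Bst2, Isg20, Usp18 and Ifi27 lower, against 2.92% of all tested genes called higher and 51.7% lower. In bulk libraries, fewer cells of a type and less RNA per cell cannot be told apart. The part of the leukocyte share in the interferon-stimulated genes was not tested beyond this scaling.

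**Figure D2:**
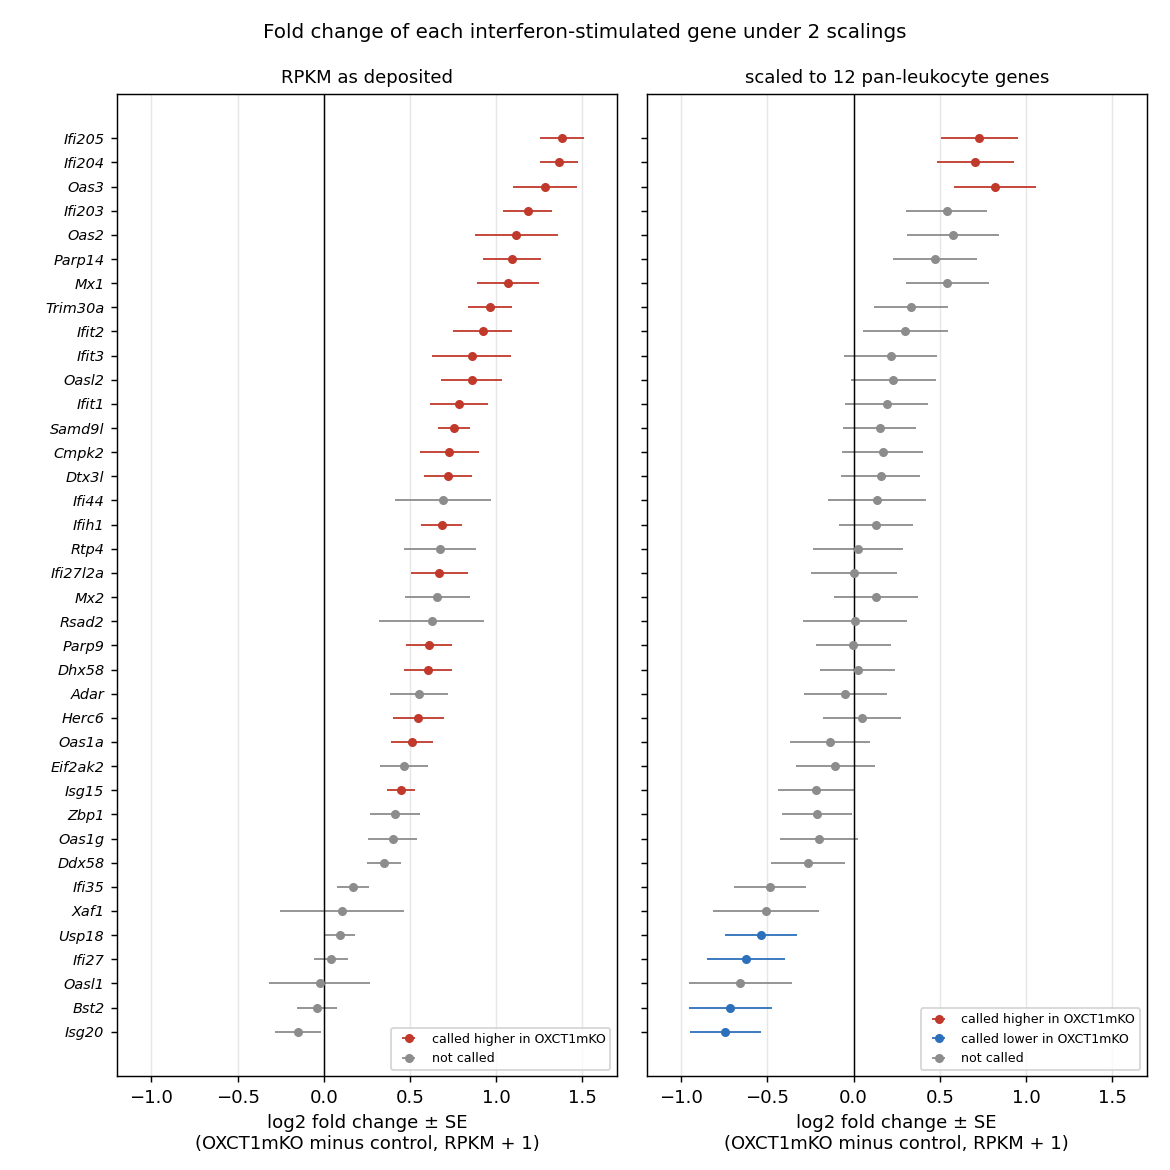
Log2 fold change of each of the 38 genes (points, bars are ± SE; OXCT1mKO minus control, with 1 added to each RPKM), from RPKM as deposited on the left and after scaling each library to 12 pan-leukocyte genes on the right. On the left 22 genes are called higher (red) and 0 lower; on the right 3 are called higher (red) and 4 lower (blue).

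The promoter sequences below are shown because they carry the ISRE core, the motif through which ISGF3 acts. The core was searched as GAAANNGAAA on both strands of windows running from 250 bases before to 50 bases after each annotated gene start (RefSeq, GRCm38.p6). Of the 26 interferon-stimulated genes with a window, 14 (53.8%) held it, against 3.99% of 27025 genes with a window and 4.08% of 9578 tested genes with one. The motif was in 9 of the 15 genes called higher (60.0%) and in 5 of the 11 genes not called (45.5%). The gamma-activated site, searched as TTCNNNGAA on both strands, was in 7 of the 26 (26.9%), against 9.55% of all genes with a window. It was in 2 of the 15 genes called higher (13.3%) and in 5 of the 11 not called (45.5%). A gene counted as holding a motif if any of its windows did, and the number of windows differed between genes. Adar and Isg20, not called, and Ifit2, called higher, held the gamma-activated site in only some of their windows. A match is a description of letters and not a mapped binding site, and a GAS match can share bases with an ISRE match. Ifi204, Ifi27, Ifi27l2a, Mx1, Mx2, Oas2, Usp18, Dhx58, Rtp4, Zbp1, Parp9 and Parp14 are named only, without a window.

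The stretches run 5′ to 3′ on the gene's strand with every ISRE core match in capitals; matches to the gamma-activated site are not marked. A match on the opposite strand appears as its reverse complement. The Ifi203 and Ifit3 stretches lie wholly within the RefSeq interval of their gene, and another Ifi203 window held no ISRE core. Stretches of 8 genes that rose, or stand beside one that did, come first. Those of Rsad2 and Bst2, which were not called, come last.
Ifi205 (chr1:174031855-174031914, minus strand): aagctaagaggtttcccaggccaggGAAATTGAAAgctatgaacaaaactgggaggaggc
Ifi203 (chr1:173942493-173942552, minus strand): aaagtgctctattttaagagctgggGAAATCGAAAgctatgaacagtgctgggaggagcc
Ifit1 (chr19:34640779-34640838, plus strand): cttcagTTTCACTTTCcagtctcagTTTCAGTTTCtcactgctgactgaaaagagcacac
Ifit3 (chr19:34583373-34583441, plus strand): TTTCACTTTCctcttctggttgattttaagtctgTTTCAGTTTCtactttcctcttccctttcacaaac
Oas1a (chr5:120907526-120907564, minus strand): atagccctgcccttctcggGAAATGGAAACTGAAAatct
Oas1g (chr5:120887614-120887650, minus strand): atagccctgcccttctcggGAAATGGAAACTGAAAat
Oas3 (chr5:120777700-120777759, minus strand): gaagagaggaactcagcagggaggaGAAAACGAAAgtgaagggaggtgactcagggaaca
Isg15 (chr4:156200850-156200909, minus strand): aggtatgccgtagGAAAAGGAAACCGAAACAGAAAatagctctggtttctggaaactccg
Rsad2 (chr12:26456538-26456597, minus strand): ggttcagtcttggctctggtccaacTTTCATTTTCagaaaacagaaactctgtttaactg
Bst2 (chr8:71537562-71537621, minus strand): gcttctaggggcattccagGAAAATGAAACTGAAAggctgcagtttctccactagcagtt

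All 3 PYHIN genes, of a family of DNA-binding proteins, rose. Ifi204 stood at 57.9 and 49.2 RPKM in the OXCT1mKO libraries, against 20.4 and 19.9 RPKM in the control libraries, a log2 fold change of 1.36 ± 0.11 (SE; limma adjusted p = 0.0127). Ifi205 stood at 54.9 and 44.7 RPKM in OXCT1mKO and at 19.1 and 17.7 RPKM in control (1.38 ± 0.13, adjusted p = 0.0127). Both OXCT1mKO libraries of these genes held more than both controls, with mean ratios of 2.66 for Ifi204 and 2.71 for Ifi205. Ifi203 stood at 30.4 and 25.9 RPKM in OXCT1mKO, against 10.6 and 13.2 RPKM in control (1.18 ± 0.14, adjusted p = 0.0127). Ifi204 and Ifi205 were also called higher when scaled to pan-leukocyte genes, at 0.71 (limma adjusted p = 0.0156) and 0.73 (0.0138), whereas Ifi203 then stood at 0.54 (0.0672). The promoter stretches of Ifi203 and Ifi205 have the same base at 40 of 60 positions (66.7%). The 3 genes lie in 1 cluster on chromosome 1 and are similar in sequence, so reads may have been split between them.

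Among the RNA sensors of the RIG-I family, Ifih1 and Dhx58 rose and Ddx58 did not pass the test. Ifih1 encodes MDA5, the sensor of long double-stranded RNA, and stood at 6.51 and 5.60 RPKM in OXCT1mKO libraries, against 3.30 and 3.47 RPKM in control libraries (log2 fold change 0.68 ± 0.12 SE, limma adjusted p = 0.0185). Dhx58 encodes LGP2, which modulates the other sensors, and stood at 8.66 and 6.77 RPKM in OXCT1mKO and at 4.83 and 4.58 RPKM in control (0.60 ± 0.14, adjusted p = 0.0337). Ddx58 encodes RIG-I, the sensor of RNA ends with a triphosphate, and stood at 11.1 and 10.4 RPKM in OXCT1mKO and at 7.89 and 8.53 RPKM in control (0.35 ± 0.10, adjusted p = 0.0516). Scaled to pan-leukocyte genes, the family had no call, with 0.13 for Ifih1, 0.02 for Dhx58 and -0.26 for Ddx58. Zbp1, a sensor of Z-form nucleic acid that can trigger necroptosis, stood at 12.7 and 14.6 RPKM in OXCT1mKO, against 11.2 and 8.90 RPKM in control. Its log2 fold change of 0.41 ± 0.14 was not called (adjusted p = 0.0863).

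All 3 IFIT genes, whose products bind foreign RNA and block its translation, rose; scaled to pan-leukocyte genes they stood at 0.19 to 0.30 with no call. Ifit2 stood at 16.8 and 14.1 RPKM in the OXCT1mKO libraries and at 6.53 and 8.94 RPKM in the control libraries (log2 fold change 0.92 ± 0.17 SE, limma adjusted p = 0.0213). Ifit3 stood at 27.7 and 21.4 RPKM in OXCT1mKO, against 10.5 and 16.0 RPKM in control (0.86 ± 0.23, adjusted p = 0.0455). Ifit1 stood at 9.82 and 8.39 RPKM in OXCT1mKO, against 4.11 and 5.71 RPKM in control (0.78 ± 0.17, adjusted p = 0.0293). In all 3 genes OXCT1mKO 1 was the highest library and control 1 the lowest. Each of the printed Ifit1 and Ifit3 stretches holds a pair of ISRE cores. Ifit3 has a close copy, Ifit3b, with which it may share reads.

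The OAS genes encode enzymes that make oligoadenylates in the presence of double-stranded RNA and so activate RNase L. Of the 6 OAS and OAS-like genes, 4 rose. Oas3 had the largest ratio of all 38 genes, 3.69, at 4.71 and 3.65 RPKM in OXCT1mKO libraries, against 0.888 and 1.38 RPKM in control libraries (log2 fold change 1.28 ± 0.19 SE, limma adjusted p = 0.0142). It was called higher under pan-leukocyte scaling too, at 0.82 (adjusted p = 0.0108). Its neighbour Oas2, 3.2 kb away on chromosome 5, stood at 7.78 and 5.34 RPKM in OXCT1mKO, against 1.91 and 3.07 RPKM in control (1.12 ± 0.24, adjusted p = 0.0287). Oasl2, an active synthetase in the mouse, stood at 18.4 and 15.0 RPKM in OXCT1mKO and at 7.46 and 10.1 RPKM in control (0.86 ± 0.18, adjusted p = 0.0267). Scaled to pan-leukocyte genes, Oas2 stood at 0.58 (adjusted p = 0.0784) and Oasl2 at 0.23 (0.440), neither called.

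Oas1a rose less, standing at 28.3 and 24.4 RPKM in OXCT1mKO, against 16.9 and 19.6 RPKM in control (0.51 ± 0.12, limma adjusted p = 0.0371; -0.14 when scaled to pan-leukocyte genes). Oas1g stood at 10.6 and 8.23 RPKM in OXCT1mKO and at 6.58 and 7.09 RPKM in control, which was not called (0.40 ± 0.14, adjusted p = 0.0876). The printed Oas1a and Oas1g promoter stretches are identical over 37 of 37 bases, and the transcripts are similar enough that reads may have been split between the genes. Oasl1 encodes a protein that in the mouse represses translation of Irf7 and has no synthetase activity. It stood at 15.7 and 12.5 RPKM in OXCT1mKO, against 10.5 and 19.3 RPKM in control, so the groups overlapped (-0.02 ± 0.29, adjusted p = 0.959). Oasl1 and Oasl2 lie 10.9 kb apart.

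The kinase PKR and the editor ADAR both act on double-stranded RNA, the first halting translation and the other changing adenosines to inosines. Eif2ak2, which encodes PKR, stood at 6.73 and 5.83 RPKM in OXCT1mKO libraries, against 3.80 and 4.77 RPKM in control libraries (log2 fold change 0.46 ± 0.14 SE, limma adjusted p = 0.0621). Adar stood at 9.37 and 8.90 RPKM in OXCT1mKO and at 4.95 and 7.04 RPKM in control (0.55 ± 0.17, adjusted p = 0.0625). Neither passed the test. Both OXCT1mKO libraries stood above both control libraries for each gene, which also held for 37.6% of all tested genes. Scaled to pan-leukocyte genes, Eif2ak2 stood at -0.11 and Adar at -0.0479, neither called.

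Of 7 direct restriction factors, Mx1, Cmpk2 and Samd9l rose. Mx1, a dynamin-like GTPase that in the mouse acts against influenza viruses in the nucleus, stood at 6.25 and 4.91 RPKM in the OXCT1mKO libraries, against 1.77 and 2.51 RPKM in the control libraries (log2 fold change 1.07 ± 0.18 SE, limma adjusted p = 0.0178). Its cytoplasmic relative Mx2 stood at 5.46 and 4.03 RPKM in OXCT1mKO and at 2.22 and 3.04 RPKM in control (0.66 ± 0.19, adjusted p = 0.0542). Samd9l, a factor that restricts poxviruses and limits translation, stood at 11.5 and 10.7 RPKM in OXCT1mKO and at 6.15 and 6.13 RPKM in control (0.76 ± 0.10, adjusted p = 0.0128). The libraries within each group were close to each other for Samd9l. Cmpk2, a mitochondrial nucleotide kinase, stood at 7.26 and 5.57 RPKM in OXCT1mKO, against 3.03 and 3.91 RPKM in control (0.73 ± 0.17, adjusted p = 0.0349). Rsad2, its neighbour 12.7 kb away, encodes viperin, which makes a chain-terminating nucleotide. It stood at 13.3 and 11.1 RPKM in OXCT1mKO and at 5.30 and 10.6 RPKM in control (0.63 ± 0.30, adjusted p = 0.168), so that control 2 lay close to the OXCT1mKO libraries. Scaled to pan-leukocyte genes, Mx1 stood at 0.54 and Cmpk2, Samd9l, Mx2 and Rsad2 at 0.01 to 0.17, none called.

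Bst2 and Isg20 had log2 fold changes just below 0. Bst2 encodes tetherin, which holds budding virions at the cell surface, and it stood at 313 and 305 RPKM in OXCT1mKO libraries, against 295 and 342 RPKM in control libraries. Its log2 fold change was -0.04, with a 95% interval of -0.34 to 0.26, though its promoter stretch holds ISRE cores. Bst2 is also a marker of plasmacytoid dendritic cells, from a list of 8 genes of which 5 passed the filter. Of these, 1 of 5 was called higher, against 16.4% of all tested genes. That gene, Siglech, was low, at 2.20 and 3.50 RPKM in OXCT1mKO and at 0.521 and 1.04 RPKM in control. Those 5 genes include Bst2, whose own log2 fold change of -0.04 is their median. Of the others, Tcf4 stood at -0.04, Klk1 at -0.30 and Ly6d at 0.24. Isg20, an exonuclease that degrades RNA, stood at 7.40 and 6.42 RPKM in OXCT1mKO and at 8.54 and 7.04 RPKM in control, with an interval of -0.50 to 0.20. Neither gene was called by limma on the deposited values. Once scaled to pan-leukocyte genes, both were called lower (Bst2 -0.72, adjusted p = 0.0221, and Isg20 -0.74, adjusted p = 0.00864), as were 51.7% of all tested genes.

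ISG15 is a ubiquitin-like protein that is joined to other proteins and is also secreted. Isg15 rose, at 71.3 and 70.7 RPKM in OXCT1mKO libraries, against 51.0 and 52.6 RPKM in control libraries, a mean ratio of 1.37 (log2 fold change 0.45 ± 0.08 SE, limma adjusted p = 0.0206; -0.22 when scaled to pan-leukocyte genes). Herc6, the mouse ligase that attaches ISG15, rose as well, at 3.89 and 3.34 RPKM in OXCT1mKO, against 1.89 and 2.43 RPKM in control (0.55 ± 0.15, adjusted p = 0.0466; 0.05 when scaled so). Usp18, the protease that removes ISG15 and also dampens signalling at IFNAR2, stood at 12.8 and 13.6 RPKM in OXCT1mKO and at 12.2 and 12.4 RPKM in control. Its log2 fold change of 0.09 had a 95% interval of -0.14 to 0.32 and was not called (adjusted p = 0.454). Of 5 genes of ISG15 conjugation, 3 rose, against 16.4% of all tested genes called higher. Besides Isg15 and Herc6 this was Uba7, the activating enzyme, at 0.42 ± 0.11 (limma adjusted p = 0.0425, and -0.22 when scaled so).

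The ADP-ribosyltransferase genes Parp9 and Parp14 and the ubiquitin ligase gene Dtx3l all rose; scaled to pan-leukocyte genes they stood at -0.00278, 0.47 and 0.16 with no call. Parp14 stood at 17.3 and 15.4 RPKM in OXCT1mKO libraries, against 6.04 and 8.36 RPKM in control libraries (log2 fold change 1.09 ± 0.17 SE, limma adjusted p = 0.0150). Dtx3l stood at 6.98 and 6.20 RPKM in OXCT1mKO and at 3.20 and 4.04 RPKM in control (0.72 ± 0.14, adjusted p = 0.0227). Parp9, whose product forms a complex with DTX3L, stood at 13.3 and 10.7 RPKM in OXCT1mKO and at 7.72 and 7.25 RPKM in control (0.61 ± 0.13, adjusted p = 0.0285). The RefSeq intervals of Dtx3l and Parp9 overlap, and the strand setting of the counting is not given, so reads of the shared bases cannot be assigned.

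Among the 7 remaining genes, Trim30a and Ifi27l2a rose; scaled to pan-leukocyte genes they stood at 0.33 and 0.00320 with no call. Trim30a, a mouse TRIM protein that restrains Toll-like receptor signalling, stood at 20.6 and 17.1 RPKM in OXCT1mKO libraries, against 9.71 and 8.61 RPKM in control libraries (log2 fold change 0.96 ± 0.13 SE, limma adjusted p = 0.0130). Ifi27l2a, a small hydrophobic protein gene strongly induced by interferon, stood at 85.3 and 66.6 RPKM in OXCT1mKO and at 42.6 and 51.8 RPKM in control (0.67 ± 0.17, adjusted p = 0.0383). Ifi27, whose RefSeq interval lies wholly within that of Ifi27l2a, stood at 53.9 and 47.8 RPKM in OXCT1mKO, against 48.2 and 50.4 RPKM in control. The strand setting of the counting is not given, so reads of bases shared by Ifi27 and Ifi27l2a cannot be assigned. The Ifi27 groups overlapped, and its interval was -0.22 to 0.30. Rtp4, a chaperone for membrane receptors, stood at 30.8 and 22.8 RPKM in OXCT1mKO and at 13.9 and 19.03 RPKM in control (0.67 ± 0.21, adjusted p = 0.0648). Ifi44, Ifi35 and Xaf1 had log2 fold changes of 0.69, 0.17 and 0.11 and were not called. Xaf1, which opposes an inhibitor of apoptosis, was the most uneven of them, at 15.7 and 6.94 RPKM in OXCT1mKO and at 9.22 and 10.2 RPKM in control.

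Within each group the interferon-stimulated genes differed between libraries in 1 prevailing direction. OXCT1mKO 1 stood above OXCT1mKO 2 for 35 of the 38 genes (92.1%), against 54.3% of all tested genes. Control 2 stood above control 1 for 29 of the 38 (76.3%), against 53.6% of all tested genes. The median log2 difference over the 38 was 0.23 between the OXCT1mKO libraries and 0.25 between the control libraries, compared with 0.66 between the groups. Bst2 was the highest of the 38 in every library and averaged 314 RPKM over the 4, against 61.6 RPKM for the next gene, Ifi27l2a. The lowest was Herc6 in both OXCT1mKO libraries and Oas3 in both control libraries.

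No interferon ligand gene was called higher by limma. Of 18 type I interferon genes, 9 were listed at 0 in all 4 libraries and Ifnb1 alone passed the filter. Ifnb1 stood at 2.30 and 1.35 RPKM in OXCT1mKO libraries, against 3.27 and 12.1 RPKM in control libraries. Its log2 fold change of -1.43 ± 0.55 was not called by limma (adjusted p = 0.106). Under pan-leukocyte scaling, which called 51.7% of all tested genes lower, Ifnb1 was called lower (-1.93, limma adjusted p = 0.00217). Without control 1 it was called lower (-2.23, adjusted p = 0.0234), and without control 2 it stood at -0.62 (adjusted p = 0.135). Ifng, the type II interferon made by lymphocytes, fell, at 2.79 and 5.13 RPKM in OXCT1mKO and at 26.2 and 11.3 RPKM in control (-1.93 ± 0.44, adjusted p = 0.0323). That call was lost without OXCT1mKO 1 (adjusted p = 0.151), OXCT1mKO 2 (0.0849) or control 1 (0.0537), and with no filter on low values (0.0797). Beside it, 4 of 8 T cell marker genes were called lower, against 16.4% of all tested genes. The T cell marker sums were 45.4 and 79.8 RPKM in OXCT1mKO, against 215 and 136 RPKM in control. The part of T cells in the Ifng values was not tested.

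Most receptor and signalling genes tested were called higher in OXCT1mKO on the deposited scale. Ifnar1 stood at 15.5 and 16.3 RPKM in OXCT1mKO libraries, against 9.06 and 10.1 RPKM in control libraries (log2 fold change 0.68 ± 0.10 SE, limma adjusted p = 0.0144). Ifnar2 stood at 27.7 and 27.5 RPKM in OXCT1mKO and at 15.3 and 17.4 RPKM in control (0.73 ± 0.10, adjusted p = 0.0132). In all, 5 of 6 interferon receptor chains and 4 of 5 genes for receptor kinases and ISGF3 rose, and 0 in either list fell. Of all tested genes, 16.4% were called higher and 16.4% lower. Stat2 rose by 0.79 ± 0.17 (adjusted p = 0.0302), Irf9 by 0.63 ± 0.14 (0.0288) and Jak1 by 0.74 ± 0.12 (0.0164). Tyk2, at 0.44 ± 0.14, was not called (0.0649). After scaling to pan-leukocyte genes, 0 genes of these lists were called higher and 1, a receptor chain, was called lower, with Stat2 at 0.17 and Irf9 at -0.00758.

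**Figure D3:**
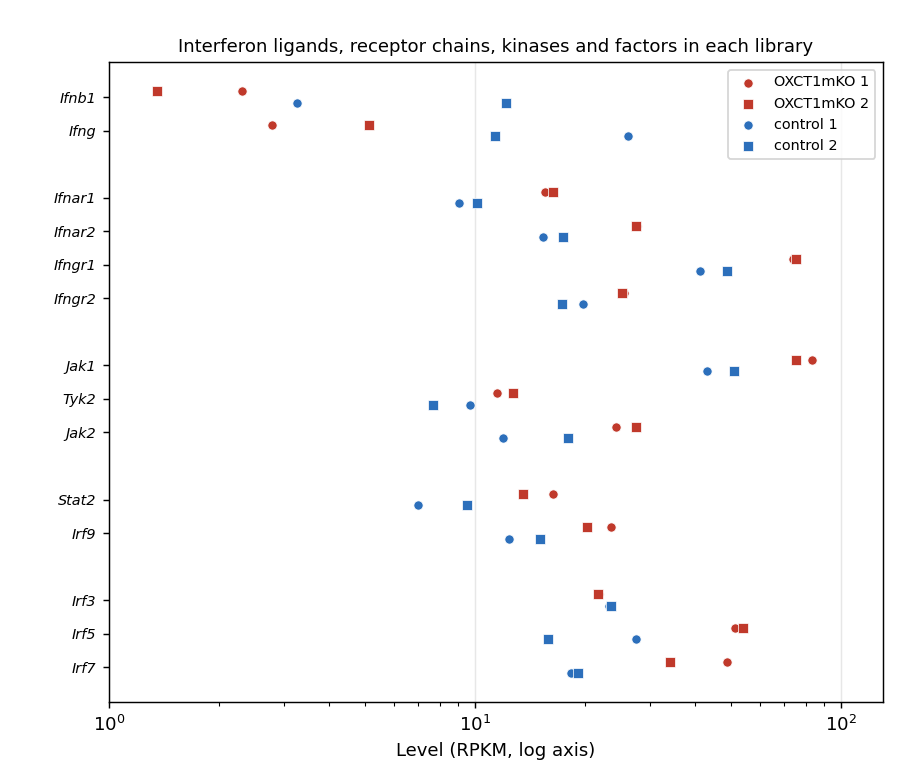
Level of interferon ligands, receptor chains, receptor kinases, ISGF3 subunits and interferon regulatory factors in each library, in RPKM on a log axis; red, drawn above, marks OXCT1mKO and blue marks control, with circles for replicate 1 and squares for replicate 2. Both red points lie left of both blue points for Ifnb1 and Ifng, and right of them for every receptor chain, kinase and ISGF3 subunit drawn.

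Of all tested genes, 16.4% were called higher and 16.4% lower on the deposited scale, against 2.92% and 51.7% under pan-leukocyte scaling. Of 16 tested genes that lead to interferon production, 10 rose and 0 fell, and under that scaling 3 were called higher and 3 lower. They included the endosomal receptors Tlr7 (log2 fold change 1.13 ± 0.14 SE, limma adjusted p = 0.0127) and Tlr9 (1.43 ± 0.14, 0.0127) with their chaperone Unc93b1 (1.11 ± 0.18, 0.0160). The transcription factor genes Irf7 (1.08 ± 0.18, 0.0175) and Irf5 (1.29 ± 0.26, 0.0245) rose as well. Irf3, which is constitutively expressed, stood at 21.8 and 21.6 RPKM in OXCT1mKO libraries, against 23.2 and 23.6 RPKM in control libraries, and was not called (adjusted p = 0.367; -0.75 and called lower under pan-leukocyte scaling). Tlr7, Tlr9 and Irf5 were called higher under pan-leukocyte scaling too, at 0.64, 1.01 and 0.63. Of 11 tested negative regulators, 4 rose and 2 fell, against 0 higher and 5 lower under pan-leukocyte scaling. Ptpn6, which was among those that rose, is also among the pan-leukocyte genes that set that scaling. Samhd1, which depletes nucleotides and limits nucleic acid sensing, rose by 1.01 ± 0.16 (0.0160), and the ribonuclease H2 subunit genes Rnaseh2c (-0.65 ± 0.08, 0.0129) and Rnaseh2a (-0.47 ± 0.10, 0.0276) fell.

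Of 57 other interferon-stimulated genes tested, a list that also holds Stat2, Irf7 and Irf9, 33 rose and 0 fell, with a median log2 fold change of 0.52; under pan-leukocyte scaling 6 were called higher and 9 lower. The PYHIN gene Ifi207 stood at 48.4 and 37.1 RPKM in OXCT1mKO libraries, against 9.09 and 12.7 RPKM in control libraries (1.88 ± 0.20 SE, limma adjusted p = 0.0127). The Schlafen family gene Slfn5 (1.57 ± 0.17, adjusted p = 0.0127) and Ms4a4c (1.60 ± 0.23, 0.0141) followed. Ifi207, Slfn5 and Ms4a4c were called higher under pan-leukocyte scaling as well, at 1.24, 0.94 and 0.98. Of 17 guanylate-binding proteins and immunity-related GTPases, a set induced by type II as well as type I interferon, 13 rose and 1, Gbp3, fell, against 3 higher and 1 lower under pan-leukocyte scaling. Over all pathway lists without the 38 genes, 67 of 113 tested genes rose and 4 fell on the deposited scale. Of all tested genes, 16.4% were called higher and 16.4% lower on that scale. Under pan-leukocyte scaling 12 of the 113 were called higher and 21 lower, against 2.92% and 51.7% of all tested genes. The 113 include Ptpn6, which is also a pan-leukocyte gene.

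The number of calls changed with the libraries kept. Without OXCT1mKO 1 limma called 0 of the 38 genes higher, and 0 of all tested genes; at an unadjusted p under 0.05, 16 of the 38 were higher, against 13.7% of all tested genes. Without OXCT1mKO 2 it called 0 of the 38 and 9 of all tested genes; at an unadjusted p under 0.05, 27 of the 38 were higher, against 16.1% of all tested genes. Without control 1 it called 14 of the 38 higher, against 13.6% of all tested genes, and without control 2 it called 26, against 18.9%. In these fits the lone library of a group is assumed to vary like the other group. The median of the 38 stayed between 0.51 and 0.79 when any 1 library was left out.

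**Figure D4:**
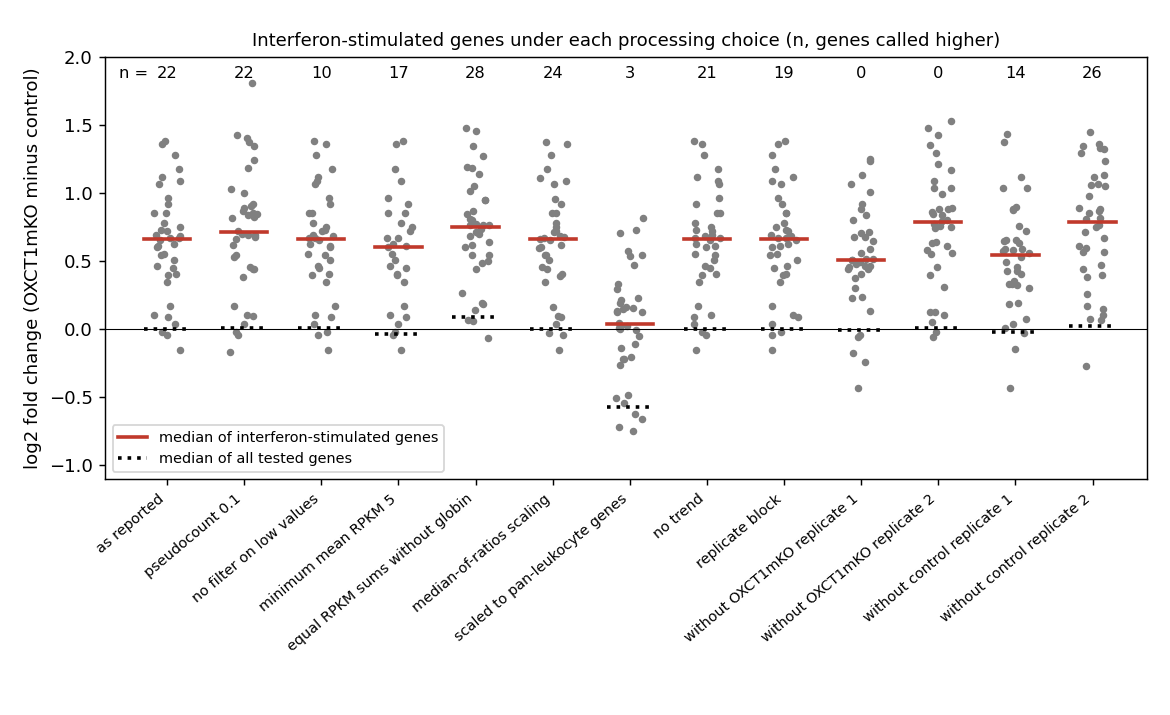
Log2 fold change of the 38 interferon-stimulated genes (grey points; OXCT1mKO minus control) under each processing choice, with their median (red line), the median of all tested genes (dotted line) and, at the top, the number called higher. The median of the 38 lies above that of all tested genes under every choice drawn, and under pan-leukocyte scaling both medians are lower, at 0.04 and -0.57.

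RPKM sums over the table were 327811 and 325034 in OXCT1mKO libraries, against 377575 and 355951 in control libraries, and the number of reads behind them is unknown. Globin genes took 0.137% and 0.132% of the OXCT1mKO sums, against 8.81% and 0.327% of the control sums. Oxct1 itself stood at 14.7 and 15.4 RPKM in OXCT1mKO, against 19.3 and 20.3 RPKM in control (log2 fold change -0.37 ± 0.09 SE, limma adjusted p = 0.0346), a value for the whole gene model and not for a deleted exon. Of 12 macrophage markers, 6 were called higher and 1, Lyz2, lower, with Csf1r at 128 and 115 RPKM in OXCT1mKO and at 45.8 and 28.8 RPKM in control. Lyz2, a lysozyme gene of myeloid cells, was at 8.76 and 6.52 RPKM in OXCT1mKO, against 688 and 744 RPKM in control. Of the marker lists for other cells, Kupffer cell (7 of 8), monocyte (7 of 7), conventional dendritic cell (6 of 8) and endothelial genes (4 of 6) were called higher, and hepatoma genes (3 of 4) were called lower. Natural killer cell genes (2 higher, 2 lower of 6), hepatocyte genes (1 higher, 1 lower of 6), epithelial genes (1 higher of 5), stellate cell genes (2 lower of 4) and neutrophil genes (1 lower of 6) had fewer calls. B cell and erythroid genes had 0. Beside all these marker counts, 16.4% of all tested genes were called higher and 16.4% lower. Neutrophil marker sums were 570 and 387 RPKM in OXCT1mKO, against 156 and 1257 RPKM in control. The part of these cell types in the interferon-stimulated genes was not tested.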

How the data were processed

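The authors deposited 1 table of RPKM values, in which rows are gene symbols and columns are the 4 libraries. Per the submitters' processing notes, STAR 2.10, R 4.0.5 and build mm10 were named, with no role stated; the counter, strand setting, annotation and gene lengths were not stated there. Samples were grouped by their titles. Values were taken as log2(RPKM + 1), a scale that shrinks fold changes of low genes, and the 12523 genes averaging 1 RPKM or more were tested with limma 3.58.1 (R 4.3.3; trended variances, group as the only term, two-sided, Benjamini-Hochberg adjustment, threshold 0.05). An exact permutation test of 2 against 2 libraries cannot give a p below 0.333. Depth is unknown, so no counting interval is given. The fit was tested on simulated data. The 38 genes, the pathway lists and the marker lists were chosen with earlier results of these data known. Every one of the 38 genes is accounted for; of the pathway lists, genes past the threshold, ligands, Ifnar1, Ifnar2, Jak1, Tyk2, Stat2 and Irf9 could be named with values and the rest were counted, and Irf3 was named after its values were seen. One pathway gene was left out of the lists and their counts and is not reported here. No list was tested as a set. Alternatives were a pseudocount of 0.1, no filter, a minimum mean of 5 RPKM, 3 scalings, no trend, a replicate block and leaving out each library. Promoter windows came from RefSeq (GRCm38.p6), matched by symbol for 26 of the 38 genes, and all 38 had a RefSeq position.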

Additional observations from a re-analysis of the deposited data

How the results depend on the processing

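Of the 38 genes, 22 were called higher as reported (16.4% of all genes) and 22 with a pseudocount of 0.1 (16.2%). Median-of-ratios scaling gave 24 (16.9% of all genes) and equal RPKM sums gave 28 (21.7%). Without a variance trend 21 were called (15.8%), and 17 of 30 at a minimum mean of 5 RPKM (19%). No filter on low values gave 10 (6.1% of all genes), and leaving out 1 library gave 0 to 26 (0% to 18.9% of all genes). Scaling to pan-leukocyte genes gave 3 higher and 4 lower (2.92% and 51.7% of all genes) and a median of 0.0364, 0.60 above all genes. Under it these log2 fold changes of the 38 genes turned negative: Ddx58 -0.26, Zbp1 -0.21, Oas1a -0.14, Oas1g -0.20, Eif2ak2 -0.11, Adar -0.0479, Isg15 -0.22, Usp18 -0.54, Parp9 -0.00278, Ifi35 -0.48, Ifi27 -0.62 and Xaf1 -0.51. Pathway genes that turned negative included Ifngr2 -0.21, Tyk2 -0.18, Irf9 -0.00758, Socs1 -0.58, Uba7 -0.22 and Ube2l6 -0.53, which is not a full list. The cause was not tested. With equal RPKM sums, Oasl1 stood at 0.0718 and Bst2 at 0.0617. Leaving out 1 library gave -0.43 to 0.39 for Oasl1, -0.14 to 0.0671 for Bst2, -0.0424 to 0.13 for Ifi27, -0.43 to 0.64 for Xaf1, -0.10 to 0.25 for Socs1 and -0.24 to 0.47 for Ube2l6. A replicate block gave 19 genes called higher (14.9% of all genes). Same-numbered libraries share only a number (correlation of deviations 0.0545), so they are not taken as pairs. With 2 libraries a group and 2 residual degrees of freedom before moderation, a gene not called may still differ.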

Other observations

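Across the 38 interferon-stimulated genes, the log2 fold change was only weakly related to the log2 of the mean RPKM over the 4 libraries. Spearman's rho was -0.171 and Pearson's r -0.225 (38 genes from the same 4 libraries, given as a description). Neighbouring genes on a chromosome did not always share a call. Mx1 was called higher and Mx2, 73.2 kb away, was not, at 0.66 against 1.07 for Mx1. Oas1a was called and Oas1g, 8.6 kb away, was not, and Cmpk2 was called while Rsad2 was not. The difference between neighbours was not tested. On chromosome 19 the 3 IFIT genes were all called, with 6.6 kb between Ifit2 and Ifit3 and 51.9 kb between Ifit3 and Ifit1.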
